A study of Mus musculus with 45 samples.

Results

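The genes described here are the 112 protein-coding genes that lie within 5 Mb of Kif3a on mouse chromosome 11, in the window chr11:48567379-58601967 of GRCm38. The rule that chose them used position and listing, and was set with earlier results of these data known. Each gene was listed in the deposited TPM tables of both sexes and had at least 1 exon in the window. Kif3a itself and the genes whose symbols begin with Uqcr, Rpl, Rps or Nduf were left out, which removed Kif3a and Uqcrq from 114 genes and left 112 of the 15828 genes in both tables. All 112 had every exon inside the window, 70 of them on the side of lower coordinates (left) and 42 on the side of higher coordinates (right).

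Kif3a encodes a motor subunit of heterotrimeric kinesin-2, which carries cargo along the axoneme during intraflagellar transport, and tubule cells that lose it lose their primary cilia. Its neighbourhood holds the type 2 cytokine cluster with Il4, Rad50 and Irf1, a row of carnitine and organic cation transporters, clusters of interferon-inducible GTPases near the window's outer ends, and genes highly used by kidney tubules such as Gpx3, the secreted glutathione peroxidase. A floxed allele that is bred into a line brings a stretch of the surrounding chromosome with it, so that genes close to the allele can differ between genotypes in sequence as well as in regulation.

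The study used translating ribosome affinity purification followed by RNA sequencing (TRAP RNASeq) to ask which transcripts on ribosomes of kidney tubule cells change after Pkd1 is lost, with and without cilia, before cysts form. Noncystic mice carried Pkd1fl/+ (wild type, or WT, in the labels; 8 males and 7 females), Pkd1KO mice Pkd1fl/fl (SKO; 7 males and 8 females), and Pkd1KO+ciliaKO mice Pkd1fl/fl together with Kif3afl/fl (DKO; 9 males and 6 females). All 45 mice, the noncystic ones included, were hemizygous for RosaEGFP-Rpl10a (R26Rpl10a), Pax8rtTA and TetOCre, took doxycycline by mouth from postnatal day 28 to 42, and gave their kidneys at postnatal day 49, at 7 weeks of age. Cre, and with it the tagged ribosomal protein, is switched on in cells of the nephron epithelium, where the Pax8 promoter drives rtTA. By the stated genotypes, only Pkd1KO+ciliaKO mice carried the floxed Kif3a allele. The loss of Kif3a and the presence of the chromosome 11 segment inherited with that allele therefore cannot be told apart in this design.

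Between 80874556 and 132958186 counts per mouse fell on genes. Levels are given as CPM, that is, counts scaled to a common library size, with TMM normalization within each sex, and a gene was called where the Benjamini-Hochberg adjusted p of edgeR's quasi-likelihood test over all genes of the sex's table was at most 0.05. Markers of proximal tubule (Slc34a1, Lrp2, Cubn, Slc5a2, Slc22a6) summed to 4107 to 9957 CPM in the 45 mice. Their medians were 8986 CPM in noncystic, 6889 in Pkd1KO and 6251 in Pkd1KO+ciliaKO males, and 7786, 8017 and 7220 in females. Markers of intercalated cells (Atp6v1g3, Slc4a1) had medians of 83.6, 76.5 and 107 CPM in the same order in males and of 124, 102 and 153 in females, and the part of such shifts in the results below was not tested. On the first principal component of male expression, noncystic replicate 3, Pkd1KO replicate 4 and Pkd1KO+ciliaKO replicates 6 and 8 stood at 26.4 to 51.9 and the other 20 males at no more than 11.8.

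Kif3a, which checks the labels, was at 13.4, 21.6 and 24.7 CPM (lowest, median and highest) in noncystic males, at 20.6, 23.0 and 28.2 in Pkd1KO males and at 4.64, 5.37 and 7.21 in Pkd1KO+ciliaKO males, with no overlap. In females 2 libraries went against their labels. The library labelled noncystic female replicate 5 had 7.02 CPM of Kif3a and the other 6 noncystic females 23.9 to 26.5. The library labelled Pkd1KO+ciliaKO female replicate 6 had 21.6 CPM and the other 5 of that group 6.86 to 8.83. Pkd1KO females had 24.4 to 29.3 CPM. On the first principal component of female expression, the library labelled noncystic replicate 5 stood at 5.0 and the other noncystic females at -11.4 to 1.2. The library labelled Pkd1KO+ciliaKO replicate 6 stood at 7.4, the others of its group at 16.3 to 25.1 and Pkd1KO females at -23.9 to 1.8. Both libraries stay under their labels here, and many female results are also given without them. Noncystic male replicate 8 held the value of 13.4 CPM, with the other 7 noncystic males at 19.6 to 24.7.

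Lyrm7 and Atox1, lower in Pkd1KO+ciliaKO mice, and Tnip1, higher, are among the members described most fully below, so their promoters are shown first. All 3 genes lie on the minus strand, 1.22 Mb (Lyrm7), 1.84 Mb (Atox1) and 1.31 Mb (Tnip1) to the right of Kif3a. The sequences run from 250 bases before to 50 bases after an annotated start site (RefSeq, GRCm38.p6; Lyrm7 at chr11:54860548-54860847, Atox1 at chr11:55461159-55461458, Tnip1 at chr11:54962891-54963190). Capitals mark GGGCGG, the core of a GC box, and CCAAT, each on either strand.
Lyrm7: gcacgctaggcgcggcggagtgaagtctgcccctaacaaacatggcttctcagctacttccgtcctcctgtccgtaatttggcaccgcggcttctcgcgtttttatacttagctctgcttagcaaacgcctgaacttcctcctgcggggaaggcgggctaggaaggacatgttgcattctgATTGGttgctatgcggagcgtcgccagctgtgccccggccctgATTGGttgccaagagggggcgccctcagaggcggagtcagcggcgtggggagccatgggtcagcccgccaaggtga
Atox1: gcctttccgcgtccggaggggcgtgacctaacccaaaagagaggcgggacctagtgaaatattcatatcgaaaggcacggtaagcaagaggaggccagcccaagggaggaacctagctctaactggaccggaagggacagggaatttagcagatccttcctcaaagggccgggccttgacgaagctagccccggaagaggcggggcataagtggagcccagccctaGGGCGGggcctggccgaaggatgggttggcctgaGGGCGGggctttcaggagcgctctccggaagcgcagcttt
Tnip1: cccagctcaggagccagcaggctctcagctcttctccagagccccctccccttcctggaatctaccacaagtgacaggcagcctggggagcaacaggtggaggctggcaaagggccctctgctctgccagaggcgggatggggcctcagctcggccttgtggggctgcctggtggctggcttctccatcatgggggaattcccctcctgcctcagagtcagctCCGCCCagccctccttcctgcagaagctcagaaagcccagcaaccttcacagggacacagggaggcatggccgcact
The window of Lyrm7 held 2 CCAAT, 1 TATAAA and no GGGCGG, that of Atox1 2 GGGCGG and that of Tnip1 1 GGGCGG. Of all 32851 promoters in the table, 35.7% held GGGCGG, 37.4% CCAAT and 13.6% TATAAA, both strands searched, and among the 117 promoters of the 91 members that could be matched the shares were 62.4%, 29.1% and 11.1%. Median GC content was 60.7% in member promoters and 52.7% in all. The marked letters describe these windows only.

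Lyrm7, which encodes a mitochondrial chaperone for the Rieske iron-sulfur protein of respiratory complex III, had the largest log2 fold change among the members called between Pkd1KO+ciliaKO and noncystic males. In males its level was 4.23, 5.37 and 7.05 CPM (lowest, median, highest) in noncystic mice, 2.54, 6.09 and 6.26 in Pkd1KO mice, and 1.65, 2.47 and 3.27 in Pkd1KO+ciliaKO mice. All 9 Pkd1KO+ciliaKO males were below all 8 noncystic males, and a single Pkd1KO male, replicate 3 at 2.54, lay within their range. The log2 fold change was -1.17 (SE 0.132, adjusted p = 1.85e-05, edgeR quasi-likelihood test) against noncystic and -1.09 (SE 0.185, adjusted p = 0.00272) against Pkd1KO. Mean Lyrm7 in Pkd1KO+ciliaKO males was 44.4% of that in noncystic males.

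In females, Lyrm7 sorted with the Kif3a level rather than with the label in both libraries that went against theirs. The library labelled noncystic replicate 5 had 2.42 CPM of Lyrm7, where the other 6 noncystic females had 7.43 to 8.54. The library labelled Pkd1KO+ciliaKO replicate 6 had 7.18 CPM, where the other 5 had 1.97 to 2.96, and Pkd1KO females ranged from 5.94 to 9.43. With all females the log2 fold change of Lyrm7 was -1.11 (SE 0.320, adjusted p = 0.0710) against noncystic, which missed the threshold, and -1.20 (SE 0.249, adjusted p = 0.00666) against Pkd1KO. Without the 2 libraries the values were -1.66 (SE 0.128, adjusted p = 1.26e-05) and -1.59 (SE 0.142, adjusted p = 1.29e-05), and all 5 remaining Pkd1KO+ciliaKO females were below all other females.

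Atox1, the copper chaperone that hands copper to the transporters of the secretory pathway, was called in all 4 comparisons of Pkd1KO+ciliaKO mice. Its level was 88.5, 138 and 165 CPM in noncystic males, 106, 125 and 143 in Pkd1KO males and 68.3, 96.9 and 111 in Pkd1KO+ciliaKO males. The male groups overlapped: noncystic replicate 3 at 88.5 and Pkd1KO replicate 3 at 106 lay within the Pkd1KO+ciliaKO range. The differences of log2 level were -0.50 (SE 0.110, adjusted p = 0.00849) and -0.41 (SE 0.0891, adjusted p = 0.0138). In females, where the ranges were 110 to 160 CPM (noncystic), 115 to 160 (Pkd1KO) and 78.9 to 120 (Pkd1KO+ciliaKO), they were -0.56 (SE 0.102, adjusted p = 0.0209) and -0.47 (SE 0.0946, adjusted p = 0.00569). The 110 CPM belonged to the library labelled noncystic replicate 5, the lowest of its group, and the 120 CPM to that labelled Pkd1KO+ciliaKO replicate 6, the highest of its group. Without them the female differences were -0.69 (SE 0.0778) and -0.55 (SE 0.0834), and the call against noncystic, made on all females, was lost without Pkd1KO+ciliaKO replicate 2 (-0.54), replicate 3 (-0.50) or replicate 4 (-0.52).

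Tnip1, a partner of the deubiquitinase A20 that restrains NF-kappaB signalling, moved the other way. Levels in males were 33.9, 36.8 and 55.0 CPM (noncystic), 33.4, 39.9 and 63.3 (Pkd1KO) and 48.0, 58.7 and 63.7 (Pkd1KO+ciliaKO). Noncystic replicate 8, the male with the lowest Kif3a outside the Pkd1KO+ciliaKO group, held the 55.0 CPM, and the other 7 noncystic males had 33.9 to 44.8. Pkd1KO replicates 3 and 4 had 60.9 and 63.3 CPM and the other 5 Pkd1KO males 33.4 to 41.0. Tnip1 was higher in Pkd1KO+ciliaKO males than in noncystic males by 0.53 on the log2 scale (SE 0.0891, adjusted p = 0.00113), and the difference of 0.40 from Pkd1KO missed the threshold (SE 0.123, adjusted p = 0.0808).

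Among females the library labelled noncystic replicate 5 had the highest Tnip1 of all 21, 71.3 CPM against 39.7 to 55.8 in the other noncystic mice. The library labelled Pkd1KO+ciliaKO replicate 6 had the lowest of its group, 49.2 CPM against 57.0 to 68.8. With all females Tnip1 was higher in Pkd1KO+ciliaKO than in Pkd1KO mice by 0.29 (log2; SE 0.0628, adjusted p = 0.00838), and the difference from noncystic was 0.22 (SE 0.118, adjusted p = 0.289). Without the 2 libraries the differences were 0.34 (adjusted p = 0.00234) and 0.37 (adjusted p = 0.0262).

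Il4, the cytokine of type 2 helper T cells and mast cells, is the nearest member on the right. It was measured at low counts, 19 to 104 per mouse. Its level was 0.312, 0.471 and 0.718 CPM in noncystic males, 0.465, 0.632 and 0.719 in Pkd1KO males and 0.173, 0.244 and 0.423 in Pkd1KO+ciliaKO males. All Pkd1KO males were above all Pkd1KO+ciliaKO males, and the noncystic males overlapped them. Il4 was lower in Pkd1KO+ciliaKO males by a log2 fold change of -0.91 (SE 0.201, adjusted p = 0.00790) against noncystic and of -1.19 (SE 0.196, adjusted p = 0.00206) against Pkd1KO. In females it again sorted with Kif3a. The library labelled noncystic replicate 5 had 0.323 CPM, with 0.633 to 0.946 in the other noncystic females, and that labelled Pkd1KO+ciliaKO replicate 6 had 0.918, with 0.187 to 0.334 in the others. The female log2 fold changes were -0.87 (adjusted p = 0.171) and -0.86 (adjusted p = 0.0953) with all libraries, and -1.48 (SE 0.215, adjusted p = 0.00245) and -1.35 (SE 0.230, adjusted p = 0.00240) without the 2.

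The values of Il4 need its position beside them. Il4 lies on the minus strand at chr11:53602982-53618669, and its end is 1015 bases from the end of Kif3a on the plus strand, so that the 2 genes run toward each other. The strand setting of the counting is not given in the sources used here, and reads past the end of Kif3a cannot be told apart from reads of Il4 in that case. In males the summed T cell markers (Cd3e, Cd4, Cd8a) ranged from 0.625 to 2.02 CPM in noncystic, 1.45 to 7.04 in Pkd1KO and 0.986 to 1.52 in Pkd1KO+ciliaKO males. The 3 mast cell markers (Cpa3, Mcpt4, Ms4a2) summed to 0.0923 to 0.231, 0.810 to 3.37 and 0.352 to 1.37 CPM in the same order of groups. Only 1 of the 3 was among the genes tested in males. The part of these cells in the Il4 result was not tested. In bulk pulldowns, fewer cells of a type and less RNA per cell cannot be told apart.

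**Figure D1:**
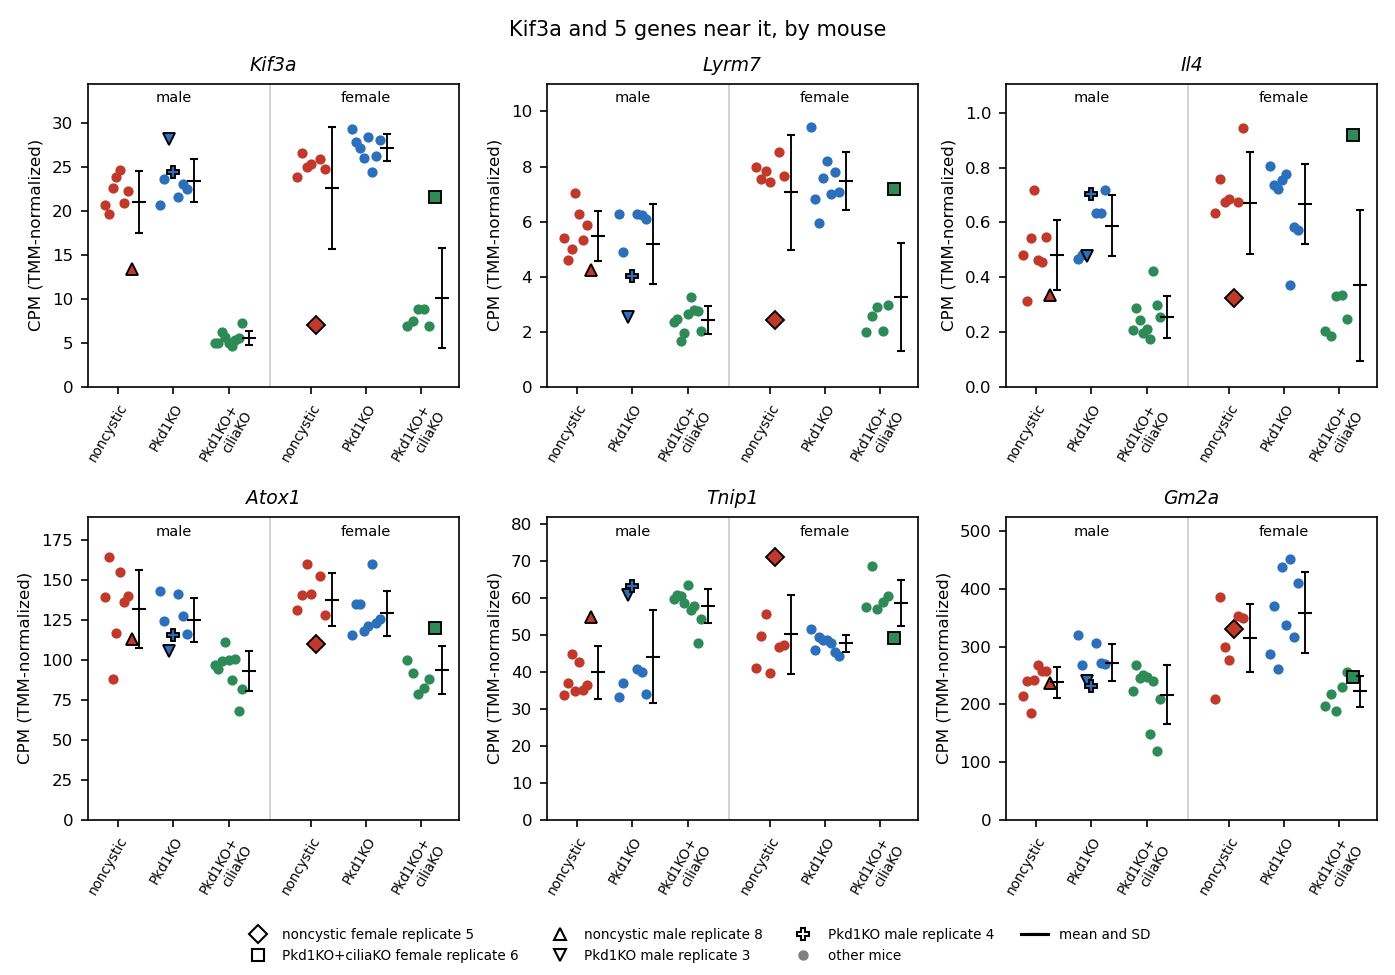
Levels of Kif3a and 5 members in each of the 45 mice (vertical axis: TMM-normalized CPM, linear from 0; points: mice; bars: mean and SD of the labelled group). The diamond (library labelled noncystic female replicate 5) and the square (library labelled Pkd1KO+ciliaKO female replicate 6) lie with the other genotype for Kif3a, Lyrm7 (2.42 and 7.18 CPM), Il4 (0.323 and 0.918 CPM) and Tnip1 (71.3 and 49.2 CPM), while for Gm2a they lie inside the range of their labelled group.

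Counted over all members, Pkd1KO+ciliaKO males differed from noncystic males in 16 of 112 genes, 8 higher and 8 lower, where 8.89% of all 15991 genes tested were called. The median log2 fold change over the 112 was -0.00. Against Pkd1KO males 7 members were called, 1 higher and 6 lower (background 3.77%). In females 3 members were called against noncystic mice (1 higher, 2 lower; background 2.54%) and 13 against Pkd1KO mice (3 higher, 10 lower; background 11.7%). Without the 2 libraries the female counts were 8 (background 5.80%) and 12 (background 10.4%).

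A stricter reading asks which members were called in the same direction against both other genotypes; the 2 comparisons share the Pkd1KO+ciliaKO mice. In males these were Lyrm7, Il4, Atox1, Col23a1 and Fat2, 5 of 112 and all lower, where 1.49% of all genes had this pattern. In females they were Atox1 and Gm2a, 2 of 112 and both lower (background 1.63%). Without the 2 libraries they were Lyrm7, Il4, Atox1, Gm2a and BC049762, all lower, and Tnip1, higher, 6 of 112 (background 3.16%). Without the 4 males that stood apart the male members were Lyrm7, Il4, Atox1, Col23a1 and Slc22a4, all lower, and Tnip1, higher, 6 of 112. The share of all genes with the pattern in that setting was not computed. Over all genes that setting called 2240 against noncystic and 628 against Pkd1KO, where all males gave 1422 and 603. None of the genes with the pattern in all mice of a sex or without the 2 female libraries was called between Pkd1KO and noncystic mice of that sex. In 4 members, Il4, Lyrm7 and Atox1 below and Tnip1 above, every remaining Pkd1KO+ciliaKO female lay apart from every other female, as did 1.58% of all genes. No member had such a complete separation in males, where 0.256% of all genes did.

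Col23a1, a transmembrane collagen 1.98 Mb to the left of Kif3a, was at 2.67, 3.74 and 4.52 CPM in noncystic males, 2.85, 4.37 and 5.52 in Pkd1KO males and 1.71, 2.22 and 3.24 in Pkd1KO+ciliaKO males. The groups overlapped slightly at their edges. The log2 fold changes were -0.62 (SE 0.141, adjusted p = 0.00974) and -0.89 (SE 0.155, adjusted p = 0.00319). In females they were -0.64 (SE 0.211, adjusted p = 0.101) and -0.84 (SE 0.239, adjusted p = 0.0326). Without the 2 libraries the latter was -0.86 (adjusted p = 0.0499), and its call was lost under 7 of 20 alternatives.

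Fat2, an atypical cadherin, was at 2.18, 4.28 and 5.46 CPM in noncystic males and at 2.03, 2.64 and 3.50 in Pkd1KO+ciliaKO males. The groups overlapped: noncystic replicates 3 and 8, at 2.18 and 3.46 CPM, and Pkd1KO replicate 4, at 3.47, lay within the Pkd1KO+ciliaKO range, and Pkd1KO replicate 3, at 2.03, at its lower end. Fat2 was lower by -0.68 on the log2 scale against noncystic (SE 0.159, adjusted p = 0.0120) and by -0.72 against Pkd1KO (SE 0.186, adjusted p = 0.0394). The second call was lost under 14 of its 22 alternatives. Female Fat2 was at 1.37 to 1.99 CPM in noncystic and 1.19 to 2.33 in Pkd1KO+ciliaKO mice, with a log2 fold change of -0.06 (SE 0.158, adjusted p = 0.858), or -0.23 (adjusted p = 0.391) without the 2 libraries.

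Gm2a, the lysosomal activator protein that presents the ganglioside GM2 for degradation, stood out in females. It was at 209, 331 and 386 CPM in noncystic, 260, 354 and 452 in Pkd1KO and 188, 223 and 256 in Pkd1KO+ciliaKO females. Every Pkd1KO female was above every Pkd1KO+ciliaKO female, and 1 noncystic female, replicate 1 at 209, lay within their range. Its log2 fold changes were -0.50 (SE 0.121, adjusted p = 0.0441) and -0.69 (SE 0.124, adjusted p = 0.00279), and the first was lost under 9 of its 19 alternatives. Leaving out the 2 libraries gave -0.52 (adjusted p = 0.0422) and -0.73 (adjusted p = 0.00407). Unlike Lyrm7, Gm2a did not sort with Kif3a in the library labelled noncystic replicate 5, which had 331 CPM, above all Pkd1KO+ciliaKO females. The library labelled Pkd1KO+ciliaKO replicate 6 had 247 CPM, inside both the range of its own group and that of noncystic females. In males the log2 fold changes were -0.13 (SE 0.135, adjusted p = 0.587) and -0.32 (SE 0.140, adjusted p = 0.210).

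Further members higher in Pkd1KO+ciliaKO than in noncystic males were Tcf7, a transcription factor of the Wnt pathway (log2 fold change 0.49, adjusted p = 0.0312), and Sparc, a secreted protein of the extracellular matrix (0.58, adjusted p = 0.0347). Zfp692, Slc22a21, Sept8 and Cdc42se2 were higher by 0.19 to 0.35, and Olfr56 by 0.87 from 7 to 47 counts per mouse in these groups. Olfr56 shares 111 exonic bases with Ifi47. Sparc levels were 43.0 to 96.9 CPM in noncystic and 71.7 to 120 in Pkd1KO+ciliaKO males, while the summed fibroblast markers (Col1a1, Col3a1, Pdgfrb) were at 151 to 521 and 274 to 547 CPM, whose part in the result was not tested. Lower were P4ha2, a collagen prolyl hydroxylase subunit (-0.27, adjusted p = 0.0411), the ubiquitin ligase Trim7 (-0.48, adjusted p = 0.0430) and Sowaha (-0.49, adjusted p = 0.0351). These calls were less steady than those of Lyrm7: of the 23 alternatives of the comparison, Sept8 kept its call in 5, Trim7 in 8, P4ha2 in 9, Sowaha in 11 and Sparc and Tcf7 in 13 each.

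**Figure D2:**
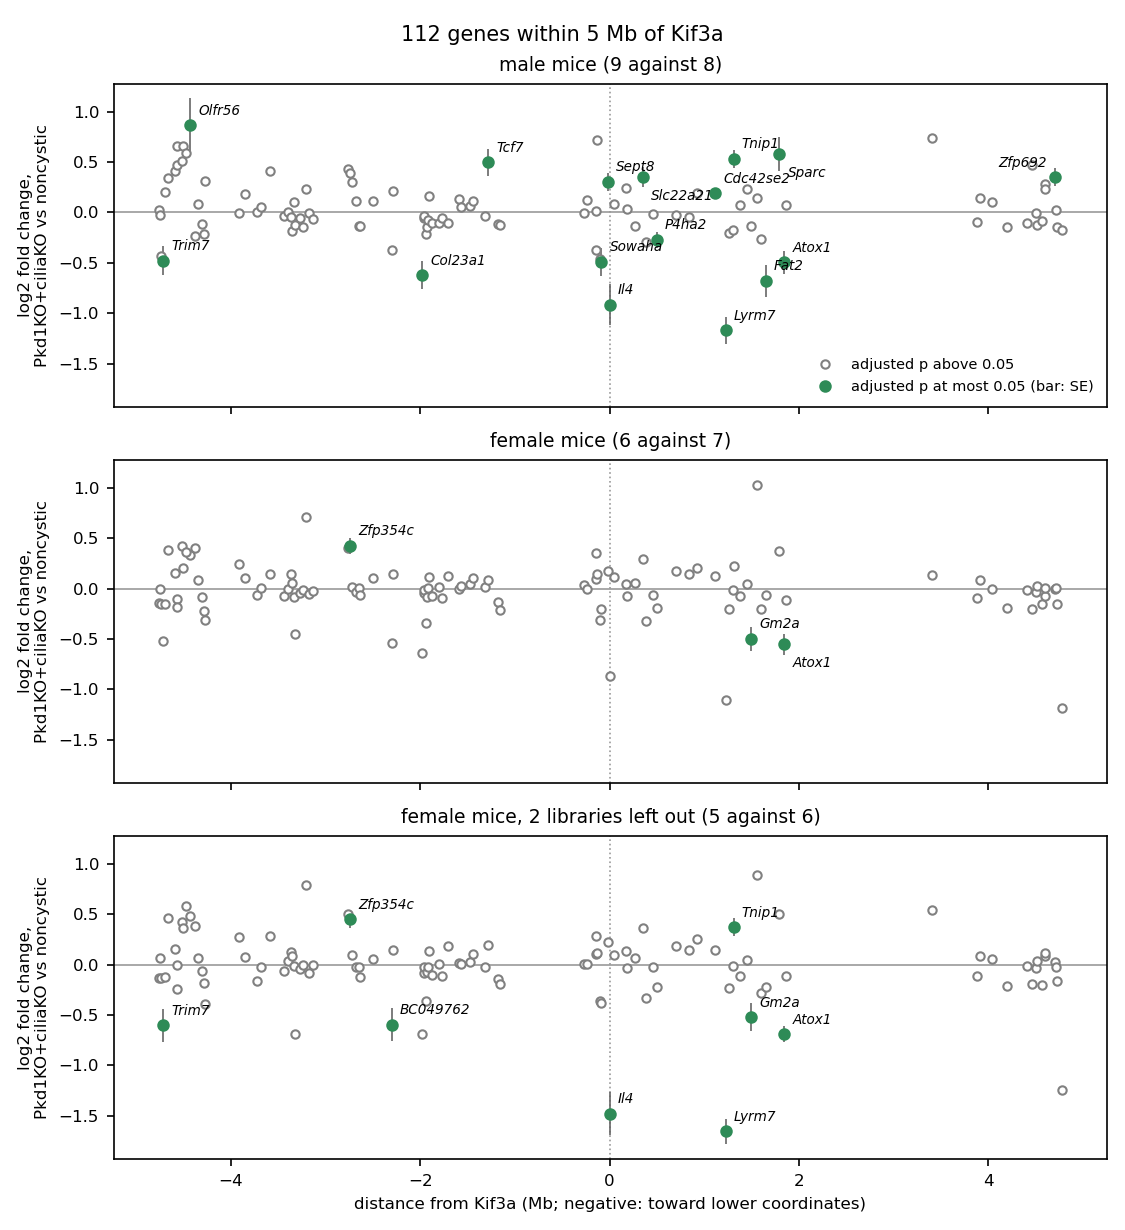
Log2 fold change of each of the 112 members, Pkd1KO+ciliaKO against noncystic, against the distance from Kif3a in Mb, for males, females and females without the 2 libraries. Filled points are called and carry their SE; the lowest filled points are Lyrm7 (-1.17 in males, -1.66 in females without the 2 libraries) and Il4 (-0.91 and -1.48), and most open points lie close to 0.

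The called members were counted by distance from Kif3a. In males, within 1 Mb 5 of 20 members were called against noncystic mice, between 1 and 2 Mb 8 of 33, between 2 and 3 Mb 0 of 9, between 3 and 4 Mb 0 of 19 and between 4 and 5 Mb 3 of 31. Of the 5 members with the stricter male pattern, Il4 lay within 1 Mb and the other 4 between 1 and 2 Mb. By side, 6 of 70 members to the left (8.57%) and 10 of 42 to the right (23.8%) were called, beside 7.67% of 1199 other genes of chromosome 11 and 8.96% of 14515 genes on other chromosomes. In all females the 3 called members fell 0, 2, 1, 0 and 0 into the 5 bins from near to far, so that none lay within 1 Mb, beside 1.75% called on the rest of chromosome 11 and 2.62% on other chromosomes. In females without the 2 libraries the 8 called members fell 1, 4, 2, 0 and 1 into the bins, beside 3.84% and 5.99%, and 5 of the 6 with the stricter pattern lay to the right. These are counts of neighbouring genes, which are not independent of each other, and the trend with distance was not tested.

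Of the 10 members closest to Kif3a, 5 on each side, Il4, Sept8 and Sowaha were called between Pkd1KO+ciliaKO and noncystic males (background 8.89%). Of the 5 nearest on the left, Sept8, a septin 0.0178 Mb away, was called in males (0.30, adjusted p = 0.0442; noncystic 25.7 to 41.4 CPM, Pkd1KO+ciliaKO 33.2 to 45.1), as was Sowaha, and Shroom1, Gdf9 and Leap2 were not called in any comparison. On the right beyond Il4, Rad50 (the DNA repair ATPase), Irf1 (an interferon-responsive transcription factor), Gm12216 and Slc22a5, the main carnitine transporter of the tubule, were not called in any comparison. Rad50 was at 28.2 ± 4.59 CPM (SD, n = 8) in noncystic and 30.0 ± 7.02 (SD, n = 9) in Pkd1KO+ciliaKO males, with a log2 difference of 0.09 (SE 0.130). Slc22a5 was at 165 ± 30.1 and 150 ± 38.5 CPM, a difference of -0.14 (SE 0.161).

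Between Pkd1KO and noncystic mice, which by their stated genotypes both lack the floxed Kif3a allele, 5 members were called in males (4 higher, 1 lower; background 6.30%) and 5 in females (2 higher, 3 lower; background 3.34%, and 5 of 112 with 3.49% without the 2 libraries). Sowaha and Cdkn2aipnl were called in both sexes.

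Sowaha, an ankyrin repeat protein gene 0.0871 Mb to the left of Kif3a, was at 5.29, 5.94 and 7.89 CPM in noncystic males, 2.51, 2.93 and 3.90 in Pkd1KO males and 3.44, 4.14 and 7.29 in Pkd1KO+ciliaKO males. Every Pkd1KO male lay below every noncystic male. The log2 fold change was -1.05 (SE 0.127, adjusted p = 0.000203). In females the levels were 5.53 to 8.70 (noncystic), 3.01 to 5.45 (Pkd1KO) and 5.15 to 8.70 CPM (Pkd1KO+ciliaKO), again with no overlap of the first 2 groups, and the log2 fold change was -0.67 (SE 0.132, adjusted p = 0.00818), or -0.72 without the 2 libraries. The 5.53 CPM belonged to the library labelled noncystic replicate 5, with the others of its group at 5.76 to 8.70. That labelled Pkd1KO+ciliaKO replicate 6 held the 8.70 CPM of its group, with the others at 5.15 to 6.23. The medians of Pkd1KO+ciliaKO mice lay between: against Pkd1KO the log2 differences were 0.56 (adjusted p = 0.0627) in males and 0.48 (adjusted p = 0.0433) in females, the latter 0.35 (adjusted p = 0.102) without the 2 libraries. Sowaha shares exonic bases with Gm9945, so that counts of the 2 genes may be split.

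Cdkn2aipnl, 1.59 Mb to the left, was higher in Pkd1KO mice than in both other genotypes in each sex, by small amounts. In males it was at 16.8, 17.7 and 20.3 CPM (noncystic), a median of 22.6 and a highest value of 27.6 (Pkd1KO) and 18.2, 20.1 and 21.4 (Pkd1KO+ciliaKO). In females it was at 21.4, 23.2 and 25.5, then 26.0, 27.8 and 30.4, then 21.5, 23.2 and 25.8 CPM, and all Pkd1KO females lay above all other females. The log2 fold changes of Pkd1KO against noncystic were 0.35 (SE 0.0637, adjusted p = 0.00309) in males and 0.27 (SE 0.0489, adjusted p = 0.00401) in females. Those of Pkd1KO+ciliaKO against Pkd1KO were -0.22 (SE 0.0609, adjusted p = 0.0479) and -0.27 (SE 0.0527, adjusted p = 0.00483), and the male call was lost under 17 of its 22 alternatives. Leaving out the 2 libraries gave female values of 0.27 and -0.25, both called.

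The other calls between Pkd1KO and noncystic mice were made in 1 sex only, and no difference between the sexes passed its test. In males Tgtp1 and Igtp, interferon-inducible GTPases at opposite ends of the window, were higher by 1.34 (SE 0.314, adjusted p = 0.0166) and 0.61 (SE 0.152, adjusted p = 0.0236) on the log2 scale, and Tcf7 by 1.10 (SE 0.301, adjusted p = 0.0391). Tgtp1 was at 1.32 to 4.19 CPM in noncystic and 3.49 to 15.9 in Pkd1KO males, where replicates 3 and 4 had 9.80 and 15.9. Pkd1KO replicate 4 also had the highest male Tcf7, 5.91 CPM against 1.25 to 1.97 in the other 6. Summed T cell markers reached 7.04 CPM in Pkd1KO males and 2.02 in noncystic males. Summed macrophage markers (Cd68, Csf1r, Adgre1) were at 83.0 to 142 and 61.3 to 87.2 CPM in the same order. Endothelial markers (Pecam1, Kdr, Emcn) were at 43.4 to 231 and 34.6 to 112 CPM, with medians of 69.8 and 74.9. The part of these cells in the results was not tested. Without the 4 males that stood apart the log2 fold changes were 0.97 (Tgtp1), 0.45 (Igtp) and 0.71 (Tcf7), all still called. The call of Tcf7 was lost under 8 of its 21 alternatives, 7 of which left out 1 male, that of Igtp under 3 and that of Tgtp1 under 1. Without Pkd1KO replicate 3 the calls of both Igtp (0.56) and Tcf7 were lost. Exons of Tgtp1 overlap those of Gm12185 and exons of Igtp those of Irgm2, so that counts may be split between them.

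In females Ltc4s, which makes leukotriene C4, was at 1.57, 1.97 and 2.92 CPM in noncystic and 0.676, 1.06 and 1.68 in Pkd1KO mice, a log2 fold change of -0.88 (SE 0.184, adjusted p = 0.0131). Gpx3, by far the most abundant member at a mean of 29212 TPM in females, was lower by -0.36 (SE 0.0920, adjusted p = 0.0373), from 15520 to 20608 CPM in noncystic and from 12015 to 16120 CPM in Pkd1KO mice. Zfp354c, a zinc finger protein gene, was higher by 0.31 (SE 0.0781, adjusted p = 0.0346) and was also higher in Pkd1KO+ciliaKO than in noncystic females (0.43, SE 0.0797, adjusted p = 0.0209). The Pkd1KO differences without the 2 libraries were -0.91 (Ltc4s), -0.38 (Gpx3) and 0.33 (Zfp354c), all called. The Gpx3 call was kept under 8 of its 21 alternatives, that of Zfp354c in Pkd1KO mice under 11 of 21, and that of Ltc4s under all 21. Ltc4s shares 268 exonic bases with Gm26542 on the opposite strand.

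**Figure D3:**
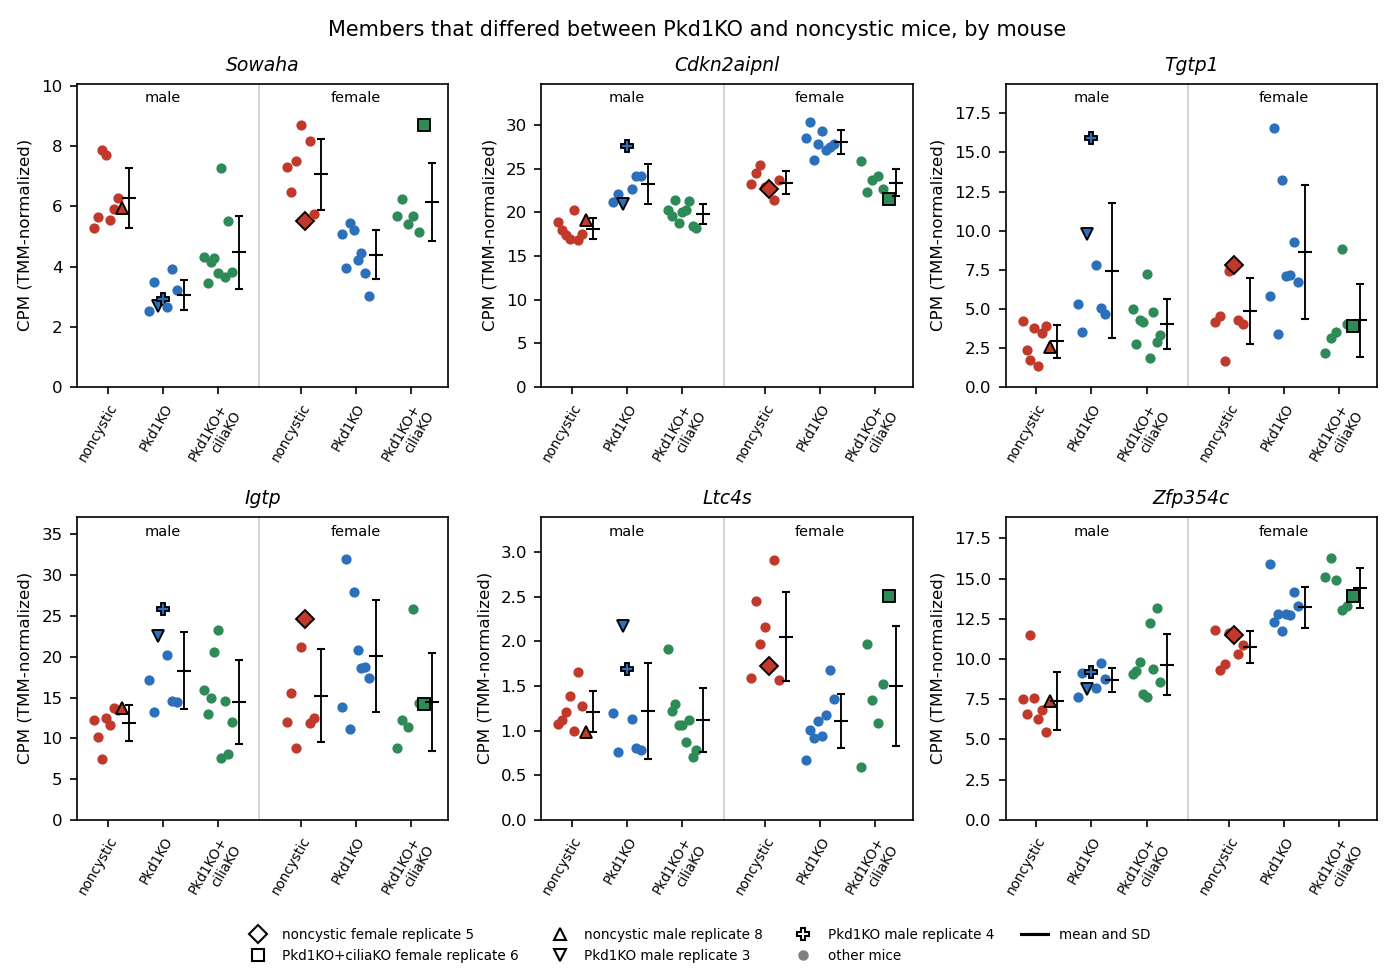
Levels of 6 members called between Pkd1KO and noncystic mice in at least 1 sex (vertical axis: TMM-normalized CPM, linear from 0; points: mice; bars: mean and SD of the labelled group). Sowaha lies lower in Pkd1KO mice of both sexes (2.51 to 3.90 and 3.01 to 5.45 CPM) and Cdkn2aipnl higher (medians of 22.6 and 27.8 CPM), while Tgtp1 and Igtp spread widely within groups.

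The calls of the functional lists in this paragraph and the next are pooled over 6 comparisons, each of which had its own background, from 2.54% to 11.7% of all genes. Of all 112 members, 30 were called in at least 1 comparison. The share of all genes called in at least 1 of the 6 was not computed, and it cannot be below the largest single background. The pooled counts therefore have no like background beside them. Of 7 genes, the interferon-inducible GTPases and Irf1 (Irgm1, Tgtp1, Tgtp2, Ifi47, 9930111J21Rik1, 9930111J21Rik2, Irf1), Tgtp1 was called, between Pkd1KO and noncystic males, and the other 6 in no comparison. Igtp, called in the same comparison, and Irgm2, called in none, are GTPases of this family in the window that the list does not hold. The list's median log2 fold change in that comparison was 0.64, beside 0.02 over all members, and 0.19 in females. For Pkd1KO+ciliaKO against noncystic mice it was 0.47 in males and 0.16 in females, and against Pkd1KO mice -0.39 and -0.13. Tgtp1 and Tgtp2, and the 2 9930111J21Rik genes, are near copies, so their split of reads is uncertain. Among the 3 carnitine and organic cation transporters, Slc22a21 was higher in Pkd1KO+ciliaKO than noncystic males (0.35, adjusted p = 0.0280) and Slc22a4 lower in Pkd1KO+ciliaKO than Pkd1KO females (-0.52, adjusted p = 0.0486). The Slc22a21 call was lost under 8 of its 23 alternatives. That of Slc22a4 was lost under 13 of its 20, among them the fit without the 2 libraries (-0.53, adjusted p = 0.0721). Neither of the 2 proton-coupled amino acid transporters, Slc36a1 and Slc36a2, was called. Of 8 genes of the endoplasmic reticulum and secretory pathway, Sparc (higher) and P4ha2 (lower) were called in males and Gm2a (lower) in females, and Canx, Sar1b, Sec24a, Mgat1 and Gfpt2 in no comparison. Of 9 genes of ubiquitin, autophagy and chaperones only Trim7 was called, in males, and the abundant Sqstm1, Skp1a and Hspa4 were not.

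Of 4 genes of antioxidant and metal handling, Atox1, Gpx3 and Ltc4s were called as given above and Phykpl was not. The mitochondrial members Vdac1, Acsl6 and Mrpl22 were called in no comparison: Vdac1, the outer membrane channel, was at 950 ± 58.8, 890 ± 98.8 and 877 ± 50.1 CPM (SD; n = 8, 7 and 9) in noncystic, Pkd1KO and Pkd1KO+ciliaKO males. Of 10 RNA-binding, splicing and decay genes, Nhp2, a protein of box H/ACA ribonucleoprotein particles, was lower in Pkd1KO+ciliaKO than in Pkd1KO females (-0.48, SE 0.0962, adjusted p = 0.00550). Of 8 signalling and cell cycle genes Tcf7, Tnip1 and Cdkn2aipnl were called. Of 9 zinc finger genes Zfp692 and Zfp672 were called in males and Zfp354c in females. Of 4 chromatin and elongation genes, Jade2 was higher (0.27, adjusted p = 0.0382) and Sap30l lower (-0.28, adjusted p = 0.0267) in Pkd1KO+ciliaKO than in Pkd1KO females. These calls of Jade2 and Sap30l were lost under 9 and 6 of 20 alternatives, and that of Nhp2 under none. The differences without the 2 libraries were -0.52 (Nhp2), 0.30 (Jade2) and -0.30 (Sap30l), all called. The T helper cytokine cluster was represented by Il4 and Rad50 alone among the genes of both tables. Adjusted p are from edgeR's quasi-likelihood test over all genes of the sex's table.

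Whether a member's change differed between the sexes was tested in 1 fit over all 6 groups. No member was called by edgeR's quasi-likelihood test for Pkd1KO+ciliaKO against noncystic (background 0.0316%), Pkd1KO+ciliaKO against Pkd1KO (background 0.221%) or Pkd1KO against noncystic (background 0.0126%). At an unadjusted p under 0.05 there were 5, 10 and 11 members. The share of all genes at that looser threshold was not computed, and the backgrounds above do not apply to it. For Lyrm7 the female minus male difference of the log2 fold change against noncystic was 0.06 (SE 0.311) with all libraries and -0.48 (SE 0.222, adjusted p = 1.00) without the 2. For Fat2 it was 0.62 (SE 0.274, adjusted p = 0.859).

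**Figure D4:**
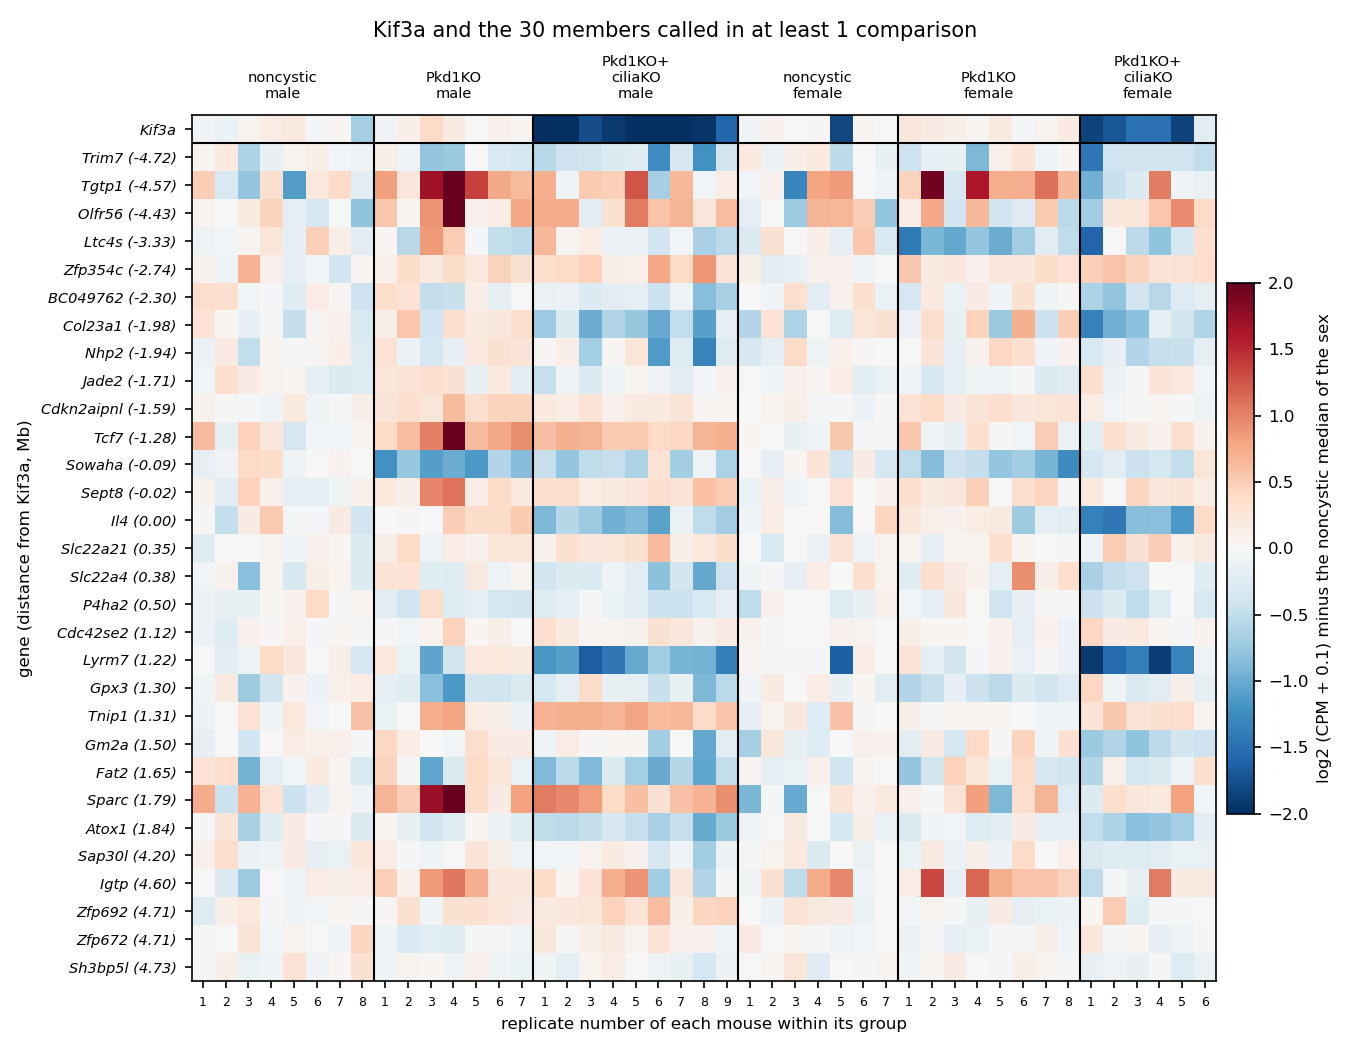
Kif3a and the 30 members called in at least 1 comparison, in rows ordered by distance from Kif3a (Mb, in parentheses), across all 45 mice in columns; colour is log2 (CPM + 0.1) minus the median of the noncystic mice of the sex, from -2 (blue) to 2 (red). In the Lyrm7 row the other Pkd1KO+ciliaKO mice are blue, and so are Pkd1KO male replicate 3 (2.54 CPM of Lyrm7, with 28.2 CPM of Kif3a) and the cell of the library labelled noncystic female replicate 5 (2.42 CPM of Lyrm7), while the cell is pale for that labelled Pkd1KO+ciliaKO female replicate 6 (7.18 CPM).

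The 112 members spanned a wide range of levels. Means ran from 0.0341 TPM for Gria1 to 22229 TPM for Gpx3 in males, 92 members had a mean of at least 1 TPM in both sexes and 17 had less than 1 TPM in both. After Gpx3 the most abundant were Vdac1 (1083 TPM in males), Hint1 (1009), Atox1 (662) and Skp1a (558). Hint1, a nucleotide phosphoramidase gene that starts about as far from Kif3a as Lyrm7, 1.26 Mb to the right, was at 306 ± 41.8, 274 ± 39.7 and 266 ± 26.9 CPM (SD; n = 8, 7 and 9) in the 3 male groups and was called in no comparison. It lies between Lyrm7 and Tnip1.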

How the data were processed

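TRAP RNASeq libraries of kidneys from 45 mice in 6 groups (3 genotypes in each sex) were analysed. The authors purified RNA on EGFP-tagged ribosomes, depleted ribosomal RNA, sequenced paired reads of 150 bp, and, per the submitters' processing notes, trimmed with fastp 0.20.0, aligned with STAR 2.7.9 to GRCm38.p6 and counted with featureCounts 2.0.0. Settings for strand and multimapping reads are not given in the sources used here. The deposited count tables hold raw counts per gene. The deposited TPM tables, made per sex by the authors, list the protein-coding genes that reached 6 counts in 20% of mice or more, and were used to choose genes and for levels between genes.

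Counts of the genes in each sex's TPM table were scaled by TMM and tested for each pair of genotypes within a sex with edgeR 4.0.16 (quasi-likelihood F test, R 4.3.3), with Benjamini-Hochberg adjustment over all genes and a threshold of 0.05. The SE of a log2 fold change is its size divided by the square root of F. Sex differences were tested in 1 fit of all 6 groups. The steps were tested on simulated data. Depth was 80874556 to 132958186 counts per mouse. No 2 mice of a group agreed within sampling noise: the lowest chi-square per degree of freedom among 149 pairs was 53.61.

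The members and the lists were chosen with earlier results of these data known, as were the 2 female and 4 male libraries left out in alternatives. Named genes are, by rule, the members called in Pkd1KO+ciliaKO mice against both other genotypes, those with the smallest p values per sex, the 5 nearest to Kif3a on each side, the 5 of highest TPM, the members of the functional lists, and extremes of ranges. Jade2, Sap30l, Nhp2 and Slc22a4 are named as list members, and BC049762 as a member of a small count. Alternatives were DESeq2 1.42.0, its size factors, no filter on low counts, 1 fit of 3 genotypes, the replicate number as a block, the libraries named above left out, and each of 45 mice left out. Promoter sequences are from RefSeq (GRCm38.p6), matched by symbol for 91 of 112 members.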

Additional observations from a re-analysis of the deposited data

Results flagged for a closer look

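In 90 groups of 6 to 9 mice, 13 values lay apart from the rest of their group by Dixon's test at 95%, of which chance alone gives about 1 in 20 groups. Of these, 6 belong to the 2 female libraries whose Kif3a went against their labels. The library labelled noncystic female replicate 5 had 7.02 CPM of Kif3a and 2.42 CPM of Lyrm7. The library labelled Pkd1KO+ciliaKO female replicate 6 had 21.6 CPM of Kif3a, 7.18 of Lyrm7, 0.918 of Il4 and 8.70 of Sowaha. Noncystic male replicate 8 had 13.4 CPM of Kif3a. Pkd1KO+ciliaKO female replicate 4 was high in both interferon-inducible GTPases examined, with 8.83 CPM of Tgtp1 and 25.9 CPM of Igtp. Single values lay apart for Il4 in Pkd1KO+ciliaKO male replicate 7 (0.423 CPM), Ltc4s in Pkd1KO+ciliaKO male replicate 1 (1.91 CPM), Zfp354c in noncystic male replicate 3 (11.5 CPM) and Atox1 in Pkd1KO female replicate 6 (159.9 CPM).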

How the results depend on the processing

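Across 45 results for named members, 963 values were computed under alternatives: 731 kept the call, 232 lost it and 0 changed direction, and 17 results were called under every alternative. Counts of members called moved more, and so did counts over all genes. DESeq2 gave 14 for Pkd1KO+ciliaKO against Pkd1KO and 11 for Pkd1KO against noncystic in males, and in females 9 for Pkd1KO+ciliaKO against noncystic and 6 against both genotypes. Over all genes DESeq2 called 1234, 1640 and 1280 in the first 3 of these comparisons, where edgeR called 603, 1008 and 405. With no filter on low counts there were 8 members for Pkd1KO+ciliaKO against noncystic males and 3 for Pkd1KO against noncystic females. Over all genes that setting called 1243 of 37388 and 417 of 36541, where the filtered fits called 1422 of 15991 and 533 of 15968. With 3 genotypes in 1 fit there were 10 and 9 in males against noncystic (Pkd1KO+ciliaKO and Pkd1KO), and in females 5 for Pkd1KO+ciliaKO against noncystic and 4 against both. Without the 2 female libraries these last counts were 8 and 6. The 1 fit called 1181, 1449 and 487 of all genes in the same comparisons against noncystic, where the pairwise fits called 1422, 1008 and 405. The cause of these shifts was not tested.

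Deviations of 41 same-numbered pairs of mice across groups correlated at -0.349 to 0.448, with 15 over 0.1. Differently numbered pairs were not examined, so whether replicate numbers pair the mice was not tested. With the replicate number as a block, males gave 6 members (Pkd1KO+ciliaKO against noncystic), 3 (against Pkd1KO) and 2 (against both), and females 4 (Pkd1KO+ciliaKO against Pkd1KO), 3 (Pkd1KO against noncystic) and 1 (against both). Over all genes the block fits called 764 and 170 in the first 2 male comparisons and 612 and 294 in the first 2 female ones. Without the block these counts were 1422, 603, 1869 and 533.

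Leaving out each mouse in turn gave, in males, 7 (without noncystic replicate 6) to 23 (without noncystic replicate 3) members for Pkd1KO+ciliaKO against noncystic, 4 to 8 against Pkd1KO, 4 to 6 against both and 4 to 8 for Pkd1KO against noncystic. In females it gave 0 (without Pkd1KO+ciliaKO replicate 2, 3 or 4) to 6 for Pkd1KO+ciliaKO against noncystic, 7 to 15 against Pkd1KO, 0 (without the same mice) to 5 (without Pkd1KO+ciliaKO replicate 6) against both and 3 to 5 for Pkd1KO against noncystic. Without Pkd1KO+ciliaKO female replicate 2, 3 or 4, 8, 8 and 13 of all 15968 genes were called, so that the 0 came with few calls over all genes. Of all 15991 genes in males, 977 were called without noncystic replicate 6 and 2359 without noncystic replicate 3, where 1422 were called with all males. Over all genes, leaving out 1 male called 403 to 630 (Pkd1KO+ciliaKO against Pkd1KO) and 742 to 1155 (Pkd1KO against noncystic). In females these ranges were 1241 to 2084 and 349 to 676. Shares of all genes called against both genotypes were computed only with all mice and without the 2 female libraries. Counts were low for Rasgef1c, Gm12248, Leap2, Ifi47, Gria1, Gm12185 and Gdf9, with no mouse above 34, which limits what could be called there.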

Other observations

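Some members stood at different mean levels in the deposited TPM tables of the 2 sexes, which were normalized separately, so that these values were not tested. Nhp2 was at 225 TPM in males and 112 TPM in females, Slc36a1, a proton-coupled amino acid transporter, at 46.5 and 31.3 TPM, Shroom1 at 1.78 and 0.765 TPM and Fat2 at 0.772 and 0.387 TPM. Anxa6, an annexin, was at 98.8 TPM in males and 148 TPM in females.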
